A study of Mus musculus with 96 samples.

Results

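Reads of 9 genes for core pluripotency transcription factors, Pou5f1, Sox2, Nanog, Esrrb, Zfp42, Tcfcp2l1, Sall4, Utf1 and Nr0b1, were followed through the single cells of 1 plate. They were picked by gene symbol, and each matched 1 of the 21711 gene rows of the deposited table, 9 rows in all. The plate was made by single-cell tagged reverse transcription (STRT), which barcodes each well during cDNA synthesis and reads the 5′ end of transcripts with their strand. Mouse embryonic stem (ES) cells filled 48 of its wells and embryonic fibroblasts (MEFs) 44, with 4 wells as negative controls, all pooled as 1 library.

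ES cells were of the R1 line, and no genetic change or treatment is labelled for any group. MEFs were kept in serum-containing DMEM with 2-mercaptoethanol, and the ES cell medium is given in the labels only by reference. The labels also list R1 as the source line of the MEF wells, against their labelled cell type, so the cell type label was used for grouping. ES cells and MEFs lay on opposite sides of the plate, so side and cell type cannot be told apart, while each plate row held both. No separate cultures are labelled. Each cell type therefore counted as 1 sample, cells were not used as replicates, and no p-value was computed.

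Pluripotency is the capacity of early embryo cells, and of ES cells grown from them, to form every lineage of the body. In mouse ES cells it is maintained by a network of transcription factors that bind the same enhancers, activate one another's genes and hold back genes of differentiation. Oct4 (the product of Pou5f1) and Sox2 bind DNA as a pair and form the base of the network. Nanog, Esrrb, Tcfcp2l1, Sall4 and Nr0b1 are tied to it as partners and targets, and Zfp42 (Rex1) and Utf1 are widely used markers of the undifferentiated state. Nanog protein is known to vary from cell to cell in serum cultures.

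STRT reads begin at transcript starts, and the stretch just upstream of each annotated RefSeq start was taken as promoter sequence. RefSeq starts can differ from the gene coordinates given below, and that of Sox2 lies well upstream of the gene start given there. Read positions were compared with neither. RefSeq promoter sequence (assembly GRCm38.p6) matched 7 of the 9 genes, all but Sall4 and Tcfcp2l1. The 250 bases before each start were searched on both strands for the letters of 4 sites known from this network or from core promoters, beside 27026 promoters in all. The stretches around the sites in the promoters of the core genes and of Zfp42 are shown 5′ to 3′ on the gene's own strand. Capitals mark ATGCAAA or its reverse complement (the octamer core read by POU factors such as Oct4), ACAANG (read by SOX factors), AGGTCA (a nuclear receptor core site) or GGGCGG (the GC box of SP factors).
Sox2, chr3:34649866-34649932, plus strand: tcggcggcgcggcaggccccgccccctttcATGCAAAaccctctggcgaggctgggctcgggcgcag
Nanog, chr6:122707384-122707450, plus strand: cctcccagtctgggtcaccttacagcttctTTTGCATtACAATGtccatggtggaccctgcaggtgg
Zfp42, chr8:43307158-43307224, minus strand: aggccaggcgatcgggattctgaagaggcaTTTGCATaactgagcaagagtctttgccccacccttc
Pou5f1, chr17:35505957-35506016, plus strand: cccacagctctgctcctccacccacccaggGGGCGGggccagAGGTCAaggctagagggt
In the Sox2 and Zfp42 stretches capitals mark the octamer core alone.

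The octamer core stood in 3 of the 7 promoters, those of Sox2, Nanog and Zfp42, and in 4.07% of all promoters. In Nanog it lay 75 to 69 bases before the start, with a SOX site 67 to 62 bases before it. The joint POU and SOX composite pattern, which overlaps both sites and was written from the Nanog site itself, was found in 2 of the 27026 promoters. ACAANG stood in 4 of the 7 (36.6% of all promoters), AGGTCA in 4 (13.8%) and GGGCGG in 4 (33%). A match describes letters in this window and does not show that a factor binds there.

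After a minimum of 10000 gene reads per well, 45 ES cells and all 44 MEFs were kept. The median depth was 161206 gene reads in kept ES cells (13576 to 703423), 851801 in MEFs (63938 to 1883709) and 3814.5 in negative control wells (236 to 4662). Depth thus favoured detection in MEFs, and shares are given both as deposited and after drawing 20000 gene reads from each cell. This left out the 3 shallowest ES cells and no MEF. ES cell replicates 2, 4, 7, 8 and 30 stood apart, a choice made after the values were seen. Their 16 fibroblast markers, such as Fn1, summed to 16363, 50549, 37306, 20772 and 21225 CPM (counts scaled to 1e6 gene reads), at or above the lowest MEF at 14543 CPM, while the other 40 ES cells lay between 481 and 11956 CPM. The negative control wells, at 16949 to 44913 CPM, were also above the lowest MEF. In 4 of these 5 wells (all but replicate 4) spike-in reads outnumbered gene reads. The part of these markers in the results was not tested. Without the 5 wells the 9 pooled log2 ratios given below ran from 7.07 to 9.68 in place of 7.05 to 9.66, with the values of Nanog and Nr0b1 as lower bounds, and the shares of cells without them stand beside each gene.

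All 9 genes were higher in ES cells. The pooled level in ES cells ran from 12.5 CPM for Nr0b1 to 731 CPM for Pou5f1, and in MEFs from 0 to 2.90 CPM. Together the 9 genes held 19167 of the ES cell reads, 0.220% of the total, and 350 of the MEF reads, 0.000996%. Each passed a 2-fold difference, and so did 15.4% of the 12818 genes with at least 20 reads. The 9 were chosen with earlier results of these data known, so 9 of 9 beside that share is a description only. MEFs had the higher level by 2-fold or more for 58.5% of genes, and the median log2 ratio of ES cell over MEF was −1.48 over all genes and 7.99 over the 9. A ratio above the smallest of the 9 was seen in 1.44% of all genes. In bulk sums such as these, fewer cells with a transcript and less transcript per cell cannot be told apart, which the single-cell values below take up.

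**Figure D1:**
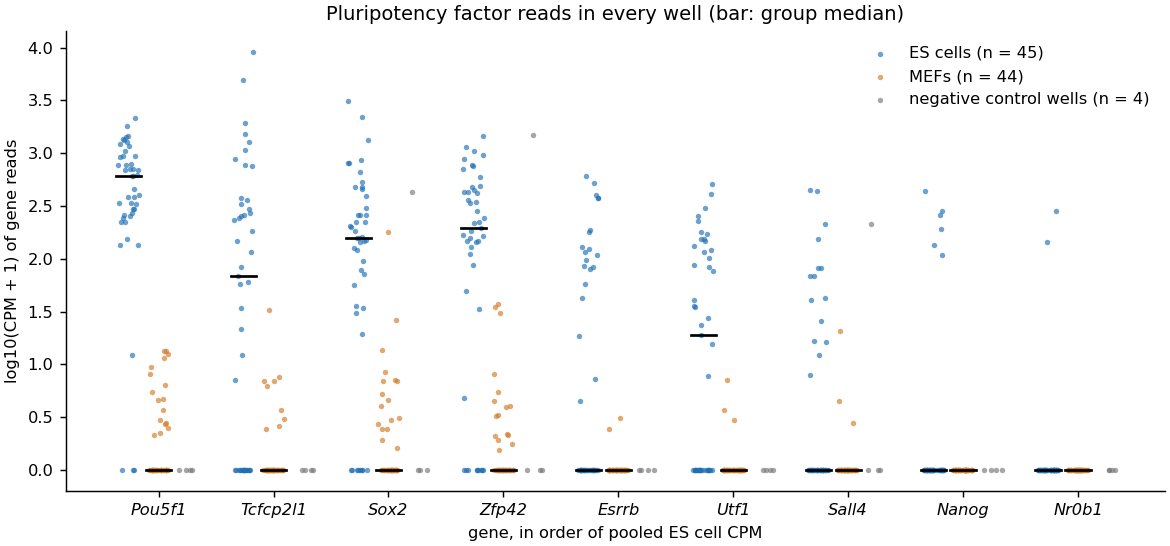
Level of each of the 9 genes in every kept ES cell (n = 45), MEF (n = 44) and negative control well (n = 4), as log10 of CPM plus 1, with bars at the median of ES cells and of MEFs. ES cell values spread from 0 to 9068 CPM, MEF medians lie at 0 for all 9 genes, and the 3 raised control points come from 1 well of 4662 gene reads.

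Pou5f1 (chr17:35506018-35510772, plus strand, GRCm38), the gene of the POU factor Oct4, was the most abundant and the most evenly spread of the 9. Its level in single ES cells was 0 at the lowest, 608 at the median and 2169 CPM at the highest, and the highest MEF stood at 12.4 CPM. The groups overlapped only at the bottom, with 41 of 45 ES cells above every MEF. Pooled, 731 CPM in ES cells (Poisson interval 713 to 749) stood against 2.59 CPM in MEFs (2.08 to 3.18), a log2 ratio of 8.14 with an SD of 1.10 over the 8 plate rows. The ratio was higher in ES cells in 8 of 8 rows, and the difference was larger than the spread between rows. Intervals here and below are at the 95% level and cover counting error only, since PCR copies were not told apart by molecular identifiers.

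Pou5f1 reads were found in 42 of 45 ES cells (93.3%, exact Clopper-Pearson interval 81.7% to 98.6%) and in 17 of 44 MEFs. At an equal 20000 reads the counts were 40 of 42 ES cells and 1 of 44 MEFs. The deepest well, ES cell replicate 33, held 10.1% of all its ES cell reads, the smallest such share among the 9 genes. Of 6471 Pou5f1 reads on the plate, 25 did not map uniquely. The ES cells without a Pou5f1 read were replicates 8, 9 and 30, of which 8 and 30 were among the 5 wells with high fibroblast markers. Without those 5 wells, 39 of 40 ES cells (97.5%) had a read.

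Sox2 (chr3:34650405-34652461, plus strand) encodes the HMG-box partner of Oct4. Its level in single ES cells was 0 at the lowest, 158 at the median and 3126 CPM at the highest. It was less even than Pou5f1, with a coefficient of variation over cells of 1.67 against 0.79. ES cell replicate 41 alone held 924 reads, 27.5% of the total. The pooled levels were 386 CPM (373 to 399) in ES cells and 2.90 CPM (2.37 to 3.52) in MEFs, a log2 ratio of 7.05 with a row SD of 1.63, higher in 8 of 8 rows. MEF replicate 83 stood out at 177 CPM and held 51 of the 102 MEF reads. Without it the log2 ratio was 8.04, and because of it only 21 ES cells lay above every MEF.

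Sox2 was read in 37 of 45 ES cells (82.2%, interval 67.9% to 92.0%) and 17 of 44 MEFs, or 34 of 42 and 1 of 44 at equal depth. Without the 5 wells it was read in 34 of 40 ES cells. The MEF replicate with 51 reads had no read of the other 8 genes and 56683 CPM of fibroblast markers, above the MEF median of 52541 CPM.

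Nanog (chr6:122707489-122714633, plus strand), a homeodomain factor that stabilises the undifferentiated state, was read in few cells. Its level was 0 in the lowest and the median ES cell and 437 CPM in the highest. Only 6 of 45 ES cells (13.3%, interval 5.05% to 26.8%) had a read, and each of them had at least 7. No MEF of 44 had a read, which allows a share of up to 6.82% by a limit of 3 counts and 8.04% by the Clopper-Pearson interval. The pooled level of 41.7 CPM (37.6 to 46.3) was at least 489-fold higher than in MEFs against a floor of 3 reads over the group. Of all genes, 2.15% were read in ES cells and not in MEFs. ES cell reads occurred in 3 of the 8 plate rows.

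The 6 cells were ES cell replicates 5, 17, 23, 39, 41 and 47, with 37, 7, 92, 115, 32 and 81 Nanog reads. Every one of them also had reads of Pou5f1, Sox2 and Zfp42, genes read in 42, 37 and 36 of the 45 ES cells. In replicate 39 this was 1 Zfp42 read (3.80 CPM). The depth of the 6 cells ran from 36963 to 607901 gene reads. Replicates 23, 39, 41 and 47 lay above the ES cell median of 161206 gene reads, and replicates 5 and 17 below it. The part of depth in Nanog detection was not tested. Over the plate 37 Nanog reads were not unique, a number given per gene and not per well. The row Nanogpd, named after its values were seen, also had 37 reads, none unique and all in replicate 5, the same number as the Nanog reads of that well. Without the 5 wells with high fibroblast markers the share was 6 of 40 (15%). With replicate 5 set aside, Nanog was read in 5 cells with 327 reads. The 364 Nanog reads were also concentrated, with 79.1% in 3 cells.

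Esrrb (chr12:86361117-86521628, plus strand) encodes an orphan nuclear receptor that can stand in for Nanog in self-renewal. Its level in single ES cells was 0 at the lowest and the median and 604 CPM at the highest. Reads occurred in 20 of 45 ES cells (44.4%, interval 29.6% to 60%) and 2 of 44 MEFs, or 15 of 42 and 0 of 44 at equal depth. Every ES cell with a read stood above every MEF in CPM, which the lower depth of ES cells favours. ES cell replicate 22 had 1 read at 3.45 CPM, and MEF replicate 49 had 2 reads at 2.09 CPM. Pooled, 92.1 CPM (85.8 to 98.7) stood against 0.114 CPM from 4 reads, a log2 ratio of 9.66 with a row SD of 1.21 and higher in 8 of 8 rows. MEF reads occurred in rows A and G only, where the ratio was 7.17 and 7.44. In the other rows it was a lower bound against the floor, between 4.91 and 8.33, so the SD mixes bounds with ratios. MEF replicate 49 gave 2 of the 4 MEF reads, so the size of the pooled ratio rests on very few MEF reads. None of the 20 cells was among the 5 wells with high fibroblast markers, so the share without those wells was 50%.

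Tcfcp2l1 encodes a grainyhead-family factor that acts downstream of LIF and STAT3. It had the widest range of levels of the 9, from 0 through a median of 67.5 to 9068 CPM in single ES cells. ES cell replicate 22 held 1444 reads, 34.4% of the total, while 16 of the 45 cells had none. Pooled, 481 CPM (467 to 496) stood against 2.16 CPM (1.70 to 2.71), a log2 ratio of 7.80 with a row SD of 1.93 and higher in 8 of 8 rows. MEF replicate 58 held 53 of the 76 MEF reads, and without it the log2 ratio was 9.45. Its reads occurred in 29 of 45 ES cells (64.4%, interval 48.8% to 78.1%) and 9 of 44 MEFs, or 26 of 42 and 2 of 44 at equal depth, and in 29 of 40 ES cells (72.5%) without the 5 wells.

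Zfp42 (chr8:43295063-43306980, minus strand), a zinc-finger gene that is silenced early when ES cells leave the naive state, was spread almost as widely as Sox2. Its level in single ES cells was 0 at the lowest, 194 at the median and 1456 CPM at the highest, and the highest MEF reached 36.2 CPM. Pooled, 317 CPM (305 to 329) stood against 1.82 CPM (1.40 to 2.32), a log2 ratio of 7.44 with a row SD of 2.04 and higher in 8 of 8 rows. Reads occurred in 36 of 45 ES cells (80%, interval 65.4% to 90.4%) and 16 of 44 MEFs, or 31 of 42 and 3 of 44 at equal depth. Among the 9, Zfp42 also had the most reads in a negative control well, 7 in replicate 94. In that well of 4662 gene reads they came to 1502 CPM, above the highest ES cell. ES cell replicate 30, in which it was the only one of the 9 genes with reads, was among the 5 wells with high fibroblast markers, without which 33 of 40 ES cells (82.5%) had a read.

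Sall4 (chr2:168748332-168767943, minus strand), a zinc-finger partner of Oct4, ranged from 0 at the lowest and median ES cell to 451 CPM. Reads occurred in 15 of 45 ES cells (33.3%, interval 20% to 49%) and 3 of 44 MEFs, or 9 of 42 and 0 of 44 at equal depth, and in 15 of 40 ES cells (37.5%) without the 5 wells. Pooled, 50.5 CPM (45.9 to 55.4) stood against 0.199 CPM from 7 reads, a log2 ratio of 7.99, or 8.76 without MEF replicate 57. It was higher in the 6 plate rows in which a ratio could be formed (row SD 1.95). Among these, MEF reads occurred in rows A and D only (ratios of 7.54 and 5.8), and the other ratios were lower bounds.

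Utf1 (chr7:139943789-139945112, plus strand), a chromatin-bound factor and target of Oct4 and Sox2, ranged from 0 through a median of 17.8 to 509 CPM. Reads occurred in 25 of 45 ES cells (55.6%, interval 40% to 70.4%) and 3 of 44 MEFs, or 17 of 42 and 0 of 44 at equal depth, and in 24 of 40 ES cells (60%) without the 5 wells. Every ES cell with a Utf1 read lay above every MEF in CPM, again favoured by depth. The margin was 6.77 CPM from 2 reads in ES cell replicate 41 against 6.03 CPM from 1 read in MEF replicate 62. Pooled, 85.8 CPM (79.7 to 92.1) stood against 0.171 CPM from 6 reads, a log2 ratio of 8.97 with a row SD of 1.76. It was higher in 8 of 8 rows, and MEF replicate 70 gave 3 of the 6 reads. Those reads lay in rows D and F (ratios of 9.17 and 4.92), and the ratios of the other rows were lower bounds.

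Nr0b1 (chrX:86191764-86195947, plus strand), which encodes Dax1, a nuclear receptor without the usual DNA-binding domain that binds and restrains Oct4, was the scarcest. Only ES cell replicates 27 and 36 had reads, 81 and 28 of them (282 and 145 CPM), and the other 43 ES cells were at 0. No MEF of 44 had a read, with the same limits of 6.82% and 8.04%. At equal depth the counts were 2 of 42 ES cells and 0 of 44 MEFs. The pooled level of 12.5 CPM (10.3 to 15.1) was at least 146-fold higher than in MEFs against the floor, a log2 ratio of at least 7.19, or 5.28 without replicate 27. Both cells had reads of 7 of the 9 genes, and neither was among the 5 wells, so the share without those was 2 of 40 (5%).

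Read counts of a 5′-end method need not grow with transcript length, so the order of the genes is given on both scales. By pooled CPM it ran Pou5f1, Tcfcp2l1, Sox2, Zfp42, Esrrb, Utf1, Sall4, Nanog and Nr0b1. The counting intervals of Esrrb and Utf1 overlapped, as did those of Sall4 and Nanog. They leave out the weight of single wells, and 1 ES cell held 34.4% of the Tcfcp2l1 reads and 1 held 27.5% of those of Sox2. Per kilobase of the deposited transcript length it ran Pou5f1 at 543, Zfp42 at 176, Sox2 at 157, Utf1 at 73.9, Tcfcp2l1 at 51.9, Nanog at 30.8, Esrrb at 19.9, Sall4 at 9.95 and Nr0b1 at 6.97 CPM per kilobase. Pou5f1 led and Nr0b1 closed both orders, and Tcfcp2l1, with a transcript of 9270 bases, moved from the second place to the fifth. The SD over single cells exceeded the mean for every gene except Pou5f1 (mean 648, SD 513 CPM, n = 45 cells), so neighbours in either order overlapped widely between cells.

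Set against genes of like abundance, Nanog, Nr0b1 and Tcfcp2l1 lay farthest below the median number of cells with a read. Nanog was read in 6 ES cells, and the median was 15 cells over the 1509 gene rows whose pooled ES cell level lay within 1.5-fold of it. Of those rows, 5.04% were read in fewer cells than Nanog. Nr0b1 was read in 2 cells against a median of 7 over 2194 rows, with 2.10% read in fewer. Tcfcp2l1 was read in 29 cells against a median of 39 over 124 rows, with 14.5% read in fewer. The other 6 lay within 3 cells of the median for their level, below it for Esrrb (20 against 23) and Sall4 (15 against 16) and above it for the rest, such as Pou5f1 with 42 against 41. Reads in at least 50% of ES cells were found for 5 of the 9 genes, against 9.39% of all genes with at least 20 reads.

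**Figure D2:**
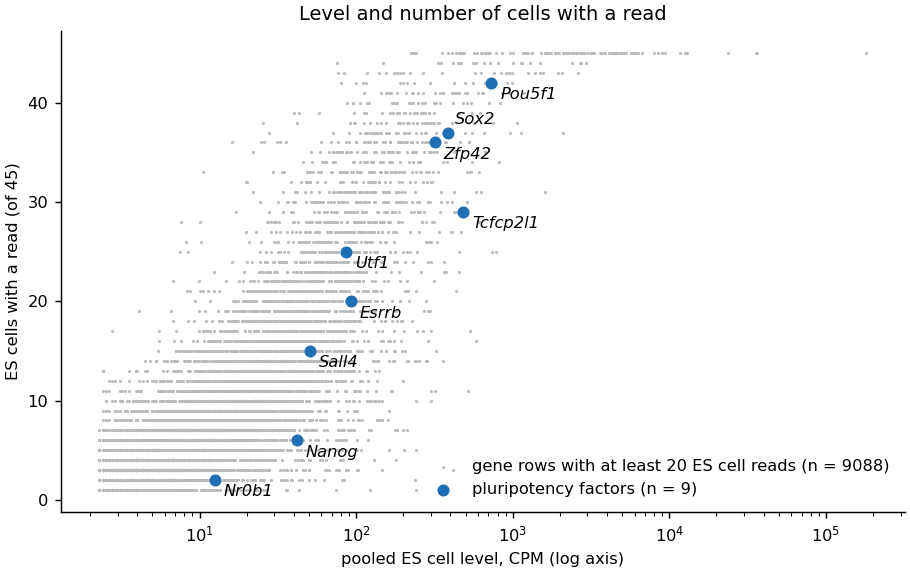
Number of ES cells with a read (of 45) against the pooled ES cell level in CPM on a log axis, for 9088 gene rows with at least 20 ES cell reads (grey) and the 9 factors (blue). Pou5f1, Sox2 and Zfp42 lie in the middle of the cloud, and Nanog (6 cells at 41.7 CPM), Nr0b1 (2 cells at 12.5 CPM) and Tcfcp2l1 (29 cells at 481 CPM) lie at its lower side.

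Most ES cells held reads of several of the 9 genes at once, and no ES cell held all of them. The median ES cell had reads of 5 (range 0 to 8), the median MEF of 1 (0 to 4), and 3 of the 4 negative control wells of none. At 20000 reads per cell the ES cell median was 4 (range 1 to 8), and 37 of 44 MEFs had none, while the other 7 had 1. ES cells and MEFs overlapped on all reads, where 41 of 45 ES cells and 7 of 44 MEFs had at least 3 of the genes. At equal depth they met only at 1 gene, where 2 ES cells stood. That count left out ES cell replicates 2, 8 and 30, too shallow to thin, which had 3, 0 and 1 of the genes. Without the 5 wells the ES cell median stayed at 5. ES cell replicates 41 and 47 had 8 of the genes, lacking only Nr0b1.

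**Figure D3:**
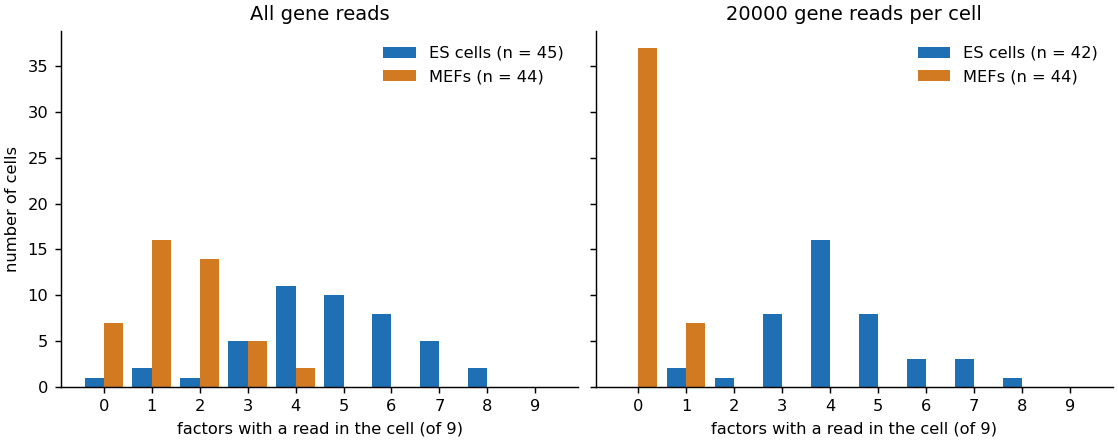
Number of cells by how many of the 9 factors had a read, for ES cells and MEFs with all gene reads (left, n = 45 and 44) and with 20000 gene reads drawn from each cell (right, n = 42 and 44). The ES cell median moves from 5 to 4 and the MEF median from 1 to 0.

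The number of genes read per ES cell moved with depth. Its Spearman rho with gene reads was 0.77 over 45 cells, and 0.55 over 42 cells when the number was counted at 20000 reads and set against the original depth. The cells shared 1 plate and library, and neither value carries a test. Only 4 ES cells had reads of 2 or fewer. Replicate 8 (13576 gene reads) had none, replicate 30 (18186) had Zfp42 only, replicate 6 (65083) had Pou5f1 only, and replicate 15 (154092) had Pou5f1 and Sox2. Replicates 8 and 30 were among the 5 wells with high fibroblast markers, and replicates 6 and 15 were not.

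**Figure D4:**
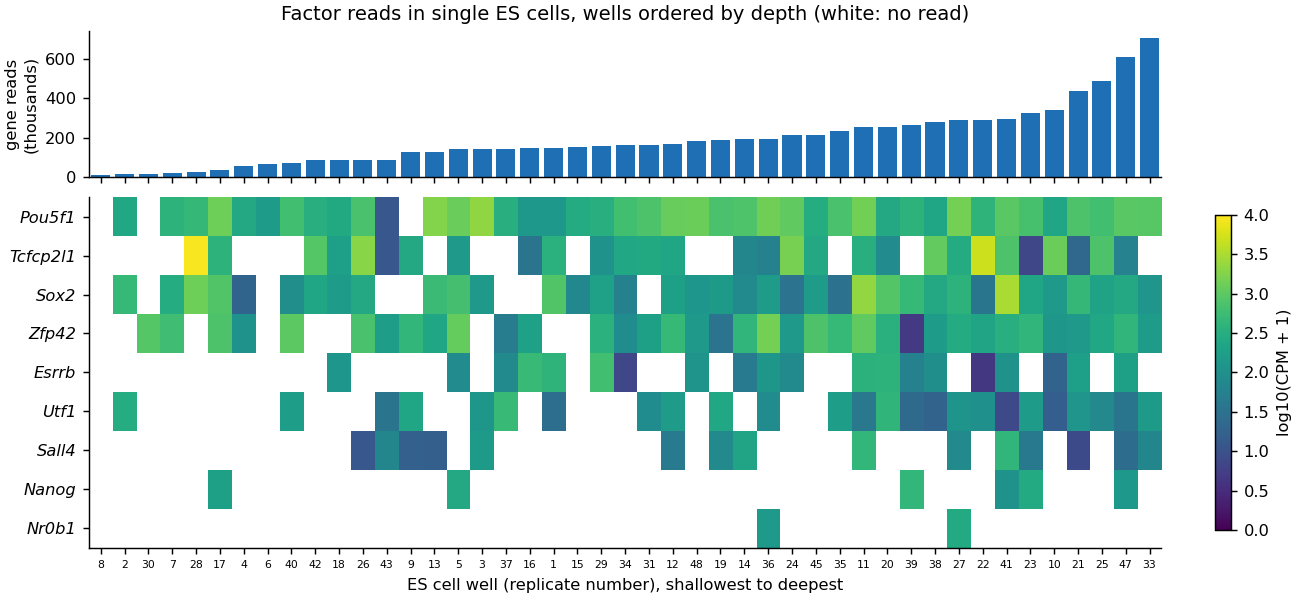
Gene reads per ES cell (top) and log10 of CPM plus 1 of each factor (bottom) in the 45 kept ES cells, ordered from the shallowest to the deepest well, with white where no read was found. Pou5f1 is filled in 42 columns and Nanog and Nr0b1 in 6 and 2, and the empty fields crowd toward the shallow wells on the left.

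Sox2 reads were found only in ES cells that also had Pou5f1 reads, but Pou5f1 was read in 42 of the 45 ES cells. That share leaves little room for reads of another factor without Pou5f1. All 37 ES cells with a Sox2 read also had a Pou5f1 read (82.2% of the 45, interval 67.9% to 92.0%), 5 had Pou5f1 alone and 3 had neither. Of those 3, replicates 8 and 30 had 13576 and 18186 gene reads, and replicate 9 had 127238. At equal depth, 34 of 42 cells had both, and without the 5 wells 34 of 40 (85%). Pou5f1 and Zfp42 were read together in 34 cells, Sox2 and Zfp42 in 30, and Pou5f1 and Tcfcp2l1 in 28. All 20 cells with Esrrb also had Pou5f1, 18 of them Sox2 and 18 Zfp42. Of the 36 pairs, 35 were read together in at least 1 cell, and Nanog with Nr0b1 was the exception at 6 and 2 cells.

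The levels of the genes varied together only weakly from cell to cell. Pearson r of log2(CPM + 10) over the 45 ES cells had a median of 0.12 over the 36 pairs (range −0.19 to 0.57), and 26 pairs lay between −0.2 and 0.2. Among the 10 pairs of genes read in at least 50% of ES cells the median was also 0.12, beside 0.07 over the 619941 pairs of all genes at that minimum. At equal depth the medians were 0.10 and 0.05. An r of at least 0.3 was reached by 3 of the 36 pairs, Pou5f1 with Sox2 (0.57), Sox2 with Nanog (0.36) and Sox2 with Tcfcp2l1 (0.32), and by 2 of the 10 pairs of genes read in at least 50% of ES cells. Over all gene pairs at that minimum the share was 10.4%. Nanog was read in 6 cells only, and r this low in counts this sparse is no finding.

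Pou5f1 with Sox2 was the highest of the pairs, at r = 0.57 and rho = 0.39. An r of at least 0.5 was reached by 1.27% of the pairs of all genes read in at least 50% of ES cells. The value was 0.56 in plate rows A to D (23 cells) and 0.60 in rows E to H (22 cells), 0.49 without the 5 wells (40 cells) and 0.48 without the 2 cells farthest from the Pou5f1 median. It was 0.40 at equal depth and 0.42 with 100 CPM added. Over the 37 cells with reads of both genes r was 0.11. That choice of cells was made after the values were seen and narrows the range of both genes, which by itself lowers r. The lowest of the 36 values, −0.19 for Tcfcp2l1 with Utf1, was −0.55 in rows A to D and 0.03 in rows E to H, and so did not hold across the plate.

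**Figure D5:**
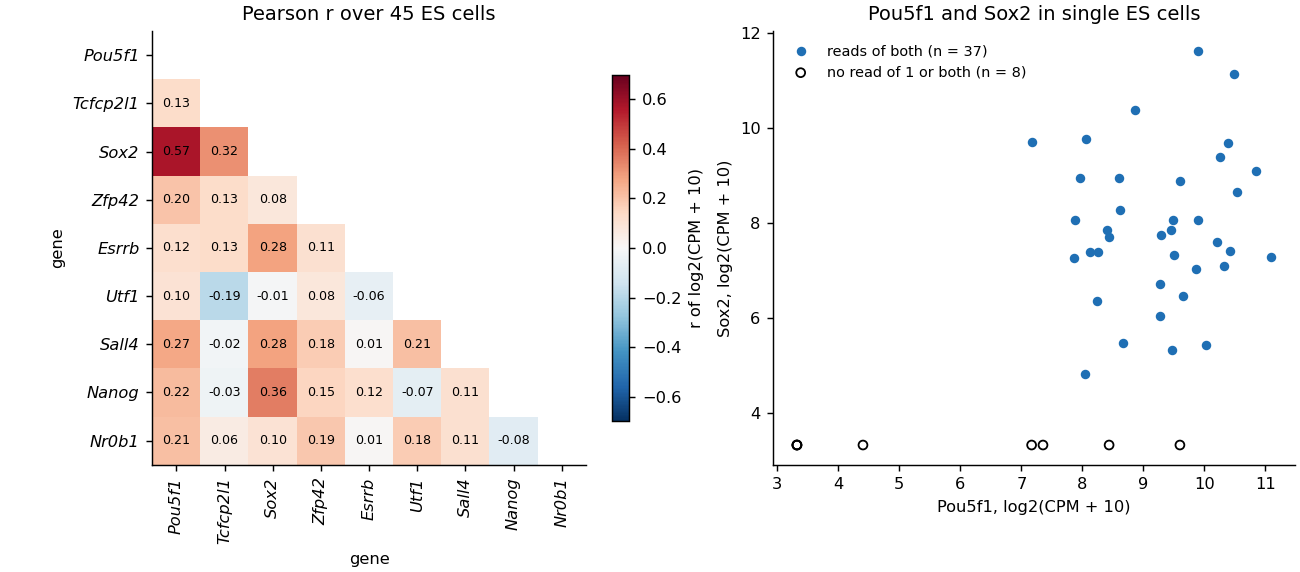
Left, Pearson r of log2(CPM + 10) over 45 ES cells for the 36 pairs of factors. Right, Sox2 against Pou5f1 in the same cells on that scale, where the 37 filled points with reads of both genes have an r of 0.11 and the 8 open points lie on the lower edge.

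Nearest rows by level were sought for the 5 factors read in at least 50% of ES cells, and none of the 3 nearest to each was another of the 9. Among 1113 other gene rows read in at least 50% of ES cells, the highest Spearman rho with Pou5f1 over 45 cells was that of Hmgb1, a chromatin protein (0.64, and 0.63 at equal depth), then Banf1 (0.61, and 0.38) and Hnrnpf (0.55, and 0.47), and Sox2 ranked 34th. Zfp42 stood nearest to Eif2s2 (0.63), Serbp1 (0.60) and Hmgb1 (0.59), at 0.50, 0.49 and 0.54 with equal depth. Sox2 stood nearest to the elongation factor gene Eef2 (0.47), Cct3 (0.42) and Iars (0.41), with Pou5f1 in the fifth place at 0.39. Among the rows nearest to Tcfcp2l1 were Rhoa (0.47) and Cfdp1 (0.45). The values named for Sox2's and Tcfcp2l1's nearest rows were between 0.21 and 0.36 at equal depth. Utf1 stood nearest to Trh, the precursor of thyrotropin-releasing hormone (0.58), Grcc10 (0.54) and Rps4y2 (0.51), at 0.55, 0.55 and 0.59 with equal depth. The cells share depth and library, and each value was picked as the highest of 1113.

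Other transcription factors of the network were less one-sided than the 9. Of 20 listed, 17 were measured, and their median log2 ratio was 1.96. ES cells had the higher level by 2-fold or more for 11, MEFs for 4 (Klf4, Stat3, Thap11 and Zfx) and neither type for 2 (Zfp281 and Trp53). Over all genes with at least 20 reads the shares were 15.4% for ES cells and 58.5% for MEFs. This list and the next were chosen with earlier results of these data known. Mybl2, a cell cycle factor, reached 264 against 6.77 CPM, Klf5, a Krüppel-like factor, 184 against 6.0 CPM and Rif1, a telomere and replication timing protein, 136 against 15.3 CPM. Sall1, a relative of Sall4, gave 474 ES cell reads from 11 cells against 5 MEF reads. Thap11 (Ronin) went the other way, at 4.47 against 64.7 CPM. Prdm14 and Gbx2 had no read in either type. With spike-in reads as the scale, which lowered the all-gene median to −6.04, 3 were higher in ES cells and 11 in MEFs.

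Targets and cofactors of the network went with the 9 genes. Of 20 listed, 19 had the higher level in ES cells by 2-fold or more and 1, Spp1, in neither type, with a median log2 ratio of 6.95. The share of all genes higher in ES cells was 15.4%. Dppa5a, which encodes an RNA-binding protein of undifferentiated cells, was read in all 45 ES cells at 4816 CPM pooled. Tdh, threonine dehydrogenase, was read in 38 cells, Tdgf1, a Nodal co-receptor, in 35 and Tet1, which oxidises methylated DNA, in 33. Lin28a, which blocks let-7 maturation, was read in 19 cells and Dppa4 in 16. With spike-in scaling 16 of the 20 were higher in ES cells and 2 in MEFs. The shares over all genes were not computed on that scale for either list.

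Many markers that define other early states were at 0 in the ES cells, and some were not. Few or no reads were common, since 9088 of the 21711 gene rows had at least 20 ES cell reads. The network factors Prdm14 and Gbx2 were at 0 too. The share of all gene rows at 0 was not computed, so the counts below are a description only. Of 10 markers of the primed epiblast, 7 had no ES cell read, and Otx2 had most, 561 reads in 8 cells (64.3 CPM pooled). Dnmt3b had 166 reads in 6 cells. Zscan4c and the other 3 rows found of the 2-cell-like state had no read in any kept cell. Of the 10 primitive endoderm markers, 4 were at 0 in ES cells (Gata4, Sox17, Sox7 and Foxa2). Sparc, which fibroblasts also express, was read in 43 ES cells (268 CPM against 3729 in MEFs) and Col4a1 in 32 (50.5 against 849 CPM). Lama1, a laminin gene, had 183 reads in 10 ES cells beside 3 reads in MEFs. Of the trophoblast markers, 5 of 9 found were at 0, among them Cdx2 and Elf5, and Krt8 had 20 reads in 1 cell. Of the neural markers, 4 of 7 found were at 0, Sox1 and Pax6 among them. Tubb3 had most with 122 reads, and Nes had 109 reads in 11 cells. In the MEFs all 16 fibroblast markers exceeded their ES cell level by 2-fold or more, as did 58.5% of the 12818 genes with at least 20 reads. The summed level of the 16 ran from 14543 to 81656 CPM.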

How the data were processed

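The authors' deposited table holds raw read counts per transcript row and well. Per the file headers, counts are maximum exon hits that include reads with other mappings, and unique reads are given over the whole plate only. The submitters' processing notes name Bowtie. Not given in the sources used here are the version, the annotation and the build. File positions lay outside the GRCm38 genes, so gene coordinates were taken by symbol from GENCODE on GRCm38 and file positions were not used.

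The 9 genes and the gene lists were chosen with earlier results of these data known. Counts were scaled by gene reads per well (no repeat or spike-in rows) to CPM, and wells under 10000 gene reads were left out. Kept ES cells held 13576 to 703423 and MEFs 63938 to 1883709 gene reads. ES cell and MEF counts were summed, with Poisson intervals, and shares given Clopper-Pearson intervals. For a sum of 0 the floor was 3 reads in the whole group, and no ratio was formed where both sums were at or under it. The SD of the log2 ratio over plate rows describes spread within the plate and takes in rows whose ratio is a lower bound. Thinning drew 20000 gene reads per cell without replacement (random seed 7). The ratio and thinning steps were tested on simulated counts. The correlation was tried only on simulated normal values, not on sparse counts of unequal depth. Named genes were the 9, the 6 with the largest absolute log2 ratio (10 CPM added) from each of the lists of network factors and of targets, the 3 rows ranked nearest to each factor read in at least 50% of ES cells (at least 200 ES cell reads and 50% unique), and the leading gene of each marker list. From these, 2 genes are not reported here. Others named, such as Nanogpd, Gata4 and the exceptions within a list, were chosen after their values were seen. Alternatives covered the read minimum, depth, detection at 5 reads, scaling, background, offset, pseudocount, plate rows and wells. Python 3.11.15, numpy 2.4.6, scipy 1.17.1 and pandas 2.3.3 were used.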

Additional observations from a re-analysis of the deposited data

Results flagged for a closer look

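Of the 4 negative control wells, replicate 94 held 10 reads of the 9 genes (7 of Zfp42, 2 of Sox2 and 1 of Sall4) and the other 3 held none. With 3 wells at 0 any read in the fourth passes Dixon's limit, so the usual chance rate of about 1 in 20 groups does not apply here. Its depth of 4662 gene reads lay beside 4356, 3273 and 236 in the others. Among the 3 ES cell wells under the read minimum, replicate 44 (9327 gene reads) held 3 Pou5f1 and 8 Tcfcp2l1 reads, genes with 0 reads in the negative control wells, and replicates 32 and 46 held no read of the 9.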

How the results depend on the processing

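All 9 genes passed 2-fold toward ES cells under 13 of the 14 alternatives run, and 8 of 8 with a ratio in plate rows E to H, where Nr0b1 had no read in either type. Among the 13, a minimum of 100 reads per gene, or no minimum, kept the main ratios. Those settings could drop none of the 9, since the scarcest, Nr0b1, had 109 reads. Single ratios moved more. The lowest were with 10 CPM added or spike-in scaling, from 1.17 (Nr0b1) to 3.58 (Pou5f1), and none fell below 1. The all-gene median was −1.48, −1.01 with median-of-ratios scaling, −0.83 without ribosomal protein genes and −6.04 with spike-in scaling, where the median of the 9 was 3.42. The median number of factors per ES cell lay between 4 and 5, and the share of ES cells with both Pou5f1 and Sox2 between 72.7% and 91.3%. The r of Pou5f1 and Sox2 moved by over 0.1, a tolerance set after the values were seen, to 0.40 (thinned), 0.42 (100 CPM added) and 0.11 (cells with both). Other network factors higher in ES cells numbered 3 in place of 11 with spike-in scaling. The cause was not tested for any of these. No paired analysis was possible because the ES cell and MEF wells share no replicate number, and plate rows, which held both types, served to describe spread. Depth limits the absence of a read: the shallowest kept ES cell had 13576 gene reads, at which 1 read is 73.7 CPM, above the pooled level of Nanog, Sall4 and Nr0b1.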
